A study of Mus musculus with 5 samples.

Results

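The genes described here are 10 members of the Wnt signalling system, 5 ligands (*Wnt4*, *Wnt5a*, *Wnt7a*, *Wnt7b* and *Wnt11*) and 5 secreted antagonists (*Sfrp1*, *Sfrp4*, *Dkk1*, *Dkk2* and *Sostdc1*). They were chosen by name, with earlier results of these data known, and are 10 of the 23420 genes in the count table. Their reads were followed through the luminal layer of the pregnant mouse uterus from the day before receptivity to the morning after embryo attachment. RNA of the luminal layer was measured in 5 RNA-seq libraries. The methods describe laser microdissection of frozen sections and amplification of small amounts of RNA. All the mice were wildtype C57BL/6N, with no deletion, transgene or injected agent named in the labels. The libraries came from the morning of day 3, the morning and the evening of day 4 and, for the morning of day 5, from luminal layer away from the attached embryo (M pole in the label) and luminal layer surrounding it (AM pole). Nearness to the embryo and pole therefore cannot be told apart in the day 5 libraries, and the earlier labels name no pole. Day 1 was the day of the vaginal plug. Each condition had 1 library, so no difference below has a replicate check, and the sources used here do not give the age of the mice. Pooling of RNA from independent samples within a group is described for laser-microdissected *Lif* floxed and *Lif* eKO uteri, and whether it covers these wildtype libraries is not stated.

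Wnt proteins are lipid-carrying glycoproteins that act over short distances on Frizzled receptors of neighbouring cells. With the co-receptors Lrp5 and Lrp6 they protect beta-catenin from breakdown, and beta-catenin then acts with Tcf and Lef factors on target genes, whereas other Wnt proteins act through Ror or Ryk receptors on cell shape and polarity. Secreted frizzled-related proteins (Sfrp) bind Wnt proteins outside the cell, while the Dickkopf (Dkk) proteins Dkk1 and Dkk2, like that of *Sostdc1*, bind the Lrp co-receptors. In the mouse uterus, Wnt ligands take part in gland formation, in the response of the epithelium to ovarian hormones and in the reaction of the endometrium to the embryo.

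Total counts ranged from 15334674 to 19529491 per library, and a floor of 3 counts equalled between 0.161 and 0.19 CPM (counts scaled to a common library size). CPM values were scaled by the TMM method, which sets library sizes so that most genes differ little between libraries. All 8 epithelial markers (keratins, *Cdh1*, *Epcam* and claudins) were detected above the floor in every library, with a summed level of 3538 CPM away from the embryo, 7129 CPM around it and 4537 to 4646 CPM before attachment. The library around the embryo differed from the other 4 in markers of other cells. All 10 embryo and trophoblast markers were above the floor there, and *Cdx2*, *Hand1*, *Pou5f1*, *Nanog* and *Gata4*, which were at 0 in the other 4 libraries, had 22, 5, 68, 10 and 54 counts. Without *Sox17*, which was abundant in every library, the other 9 embryo markers summed to 103 CPM around the embryo and to 4.84 to 12.6 CPM elsewhere. The 6 smooth muscle markers summed to 395 CPM around the embryo and to 10.9 to 31.9 CPM elsewhere, and the 5 gland markers in the table to 30.4 CPM against 1.26 to 4.23 CPM. The 11 stromal markers summed to 397 CPM around the embryo and to 510 to 593 CPM elsewhere, and the 5 immune markers to 102 CPM against 412 to 1215 CPM. As sums, muscle, gland and embryo markers were thus highest in this library and stromal and immune markers lowest. The 11 stromal markers went both ways. Past 2-fold, 4 were lower and 1 was higher around the embryo than away from it. The muscle sum rested mainly on *Des* (7084 counts over the 5 libraries), and which cells these reads came from was not tested. The gland list includes *Lif* (359 counts over the 5 libraries), which the study places on day 5 in stroma near the attached embryo. Of markers with a mean of 1 CPM or more, 5 of 5 muscle and 4 of 4 gland genes were more than 2-fold higher around the embryo than away from it. Over all genes with such a mean, 13.4% were higher and 15% lower in this comparison. The 5 endothelial markers summed to 95.5 CPM around the embryo against 11.98 to 44.7 CPM, but they went both ways. Around the embryo 1 was more than 2-fold higher than away from it and 2 were lower, with a median log2 difference of -0.82. Against day 4 evening 3 were higher and 2 lower, where 19.1% and 20.7% of all genes were. Of 3 erythroid markers *Hba-a1* and *Hba-a2* were at 0 in every library. The part of these other cells in the results below was not tested.

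**Figure D1:**
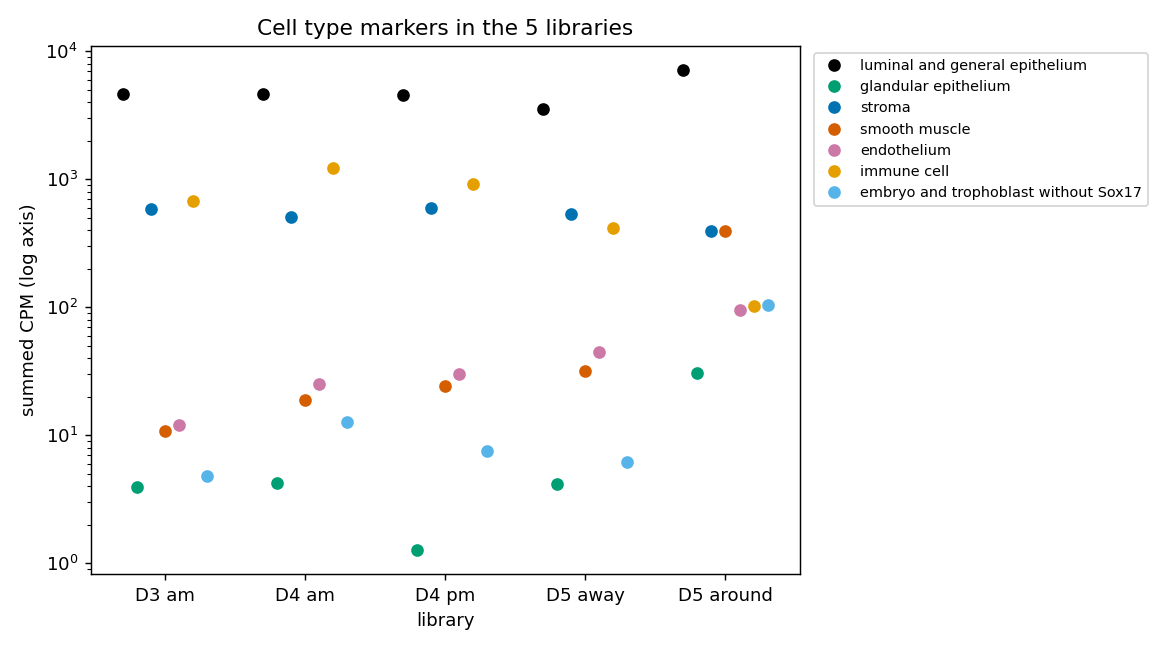
Summed level of each marker list (CPM, log axis) in the 5 libraries, 1 point per library and list, set side by side within a library (am, morning; pm, evening; away and around, relative to the attached embryo). The epithelial list is the highest in every library, while the smooth muscle, gland and embryo lists lie highest around the embryo.

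*Dkk1* and *Dkk2* moved apart between the day 5 libraries, and the bases before their start sites are shown because *Dkk1* is known as a target gene of beta-catenin and *Dkk2* is its relative. The 250 bases before the RefSeq start site (GRCm38.p6) are given 5′ to 3′ along the gene, with matches to the Tcf/Lef core letters CTTTGA and CTTTGT, on either strand, in capitals. *Dkk1* is at chr19:30549497-30549746 on the minus strand and *Dkk2* at chr3:132085042-132085291 on the plus strand.
Dkk1: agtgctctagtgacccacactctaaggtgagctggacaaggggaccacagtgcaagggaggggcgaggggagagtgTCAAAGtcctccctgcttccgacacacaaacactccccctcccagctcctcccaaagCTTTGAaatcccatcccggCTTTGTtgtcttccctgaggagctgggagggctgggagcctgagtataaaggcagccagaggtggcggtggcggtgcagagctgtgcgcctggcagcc
Dkk2: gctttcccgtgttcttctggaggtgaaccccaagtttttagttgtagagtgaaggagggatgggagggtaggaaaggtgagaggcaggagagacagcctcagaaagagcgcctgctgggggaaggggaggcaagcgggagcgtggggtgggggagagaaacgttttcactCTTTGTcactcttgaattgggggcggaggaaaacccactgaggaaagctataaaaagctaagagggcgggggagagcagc
In the *Dkk1* window, CTTTGA lay on the gene's strand from 117 to 112 bases before the start and on the other strand from 174 to 169 bases before it, and CTTTGT lay from 98 to 93 bases before it. The *Dkk2* window held 1 match, CTTTGT, from 80 to 75 bases before the start. Among 32851 RefSeq promoter windows of the same length, 13.8% held CTTTGA, 16.5% held CTTTGT, 27.6% held at least 1 of these matches and 0.776% held 3 or more. RefSeq windows were at hand for 5 of the 10 members (*Dkk1*, *Dkk2*, *Wnt4*, *Wnt7a* and *Wnt11*, the last with 2 start sites). Of the other 4 windows, 1 of the *Wnt11* windows held 1 CTTTGA match and the rest held none, and none of the 6 held the Stat letters TTCNNNGAA, which 7.02% of all windows held. A match describes the letters only, and absence of a match says nothing about the factor.

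All 10 members are protein-coding genes, placed by the count table on GRCm38 (mm10). The ligands lie at chr4:137277635-137299501 (*Wnt4*, 5 exons), chr14:28505473-28525515 (*Wnt5a*, 6 exons), chr6:91363983-91411369 (*Wnt7a*, 4 exons), chr15:85535437-85581821 (*Wnt7b*, 6 exons) and chr7:98838845-98854747 (*Wnt11*, 5 exons). The antagonists lie at chr8:23411502-23449632 (*Sfrp1*, 3 exons), chr13:19623175-19632823 (*Sfrp4*, 6 exons), chr19:30545885-30549496 (*Dkk1*, 4 exons), chr3:132085292-132180304 (*Dkk2*, 4 exons) and chr12:36314169-36318452 (*Sostdc1*, 2 exons). Counts were summed over exons. The strand setting of the counting is not given in the sources used here. Exons of *Wnt7b* share 88 bases with the antisense gene *AU022754*, which had 1 to 15 counts, and exons of *Wnt11* share 16 bases with the pseudogene *Gm8398*, so reads on these bases cannot be assigned with certainty.

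*Wnt7b* was the ligand with the widest range of level over the libraries. It encodes a ligand known for its part in epithelial organs such as lung and kidney. Reads numbered 668 on day 3, then 115 and 409 on the morning and evening of day 4, 21271 on day 5 away from the embryo and 21932 surrounding it. These correspond to 38.5, 6.40, 25.9, 1140 and 1273 CPM. Both day 5 libraries thus stood far above the 3 earlier ones, and day 4 morning was the lowest. *Wnt7b* was 6.01-fold lower on day 4 morning than on day 3 (95% counting interval 4.92 to 7.39) and 4.04-fold higher on day 4 evening than that morning (3.28 to 5.01). From day 4 evening it was 44.1-fold higher away from the embryo (40.0 to 48.8) and 49.3-fold higher around it (44.7 to 54.5). These intervals are exact Clopper-Pearson intervals of the ratio of counts, here and below, and cover counting error only. Between the day 5 libraries *Wnt7b* differed by 1.12-fold (1.10 to 1.14), higher around the embryo, and this direction turned when libraries were scaled by their totals (log2 difference -0.15) or by totals without *Rn45s* and *Lars2*, which took 14.98% to 23.2% of the counts of a library (-0.125). In RNA from a tissue, more cells of a type and more RNA per cell cannot be told apart.

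*Wnt11*, a ligand known mainly for cell movement and polarity, was higher at each later time and highest around the embryo. It had 1615 reads on day 3, with 4272 and 6166 on the morning and evening of day 4, then 10016 away from the embryo and 16849 surrounding it. These were 93.0, 238 and 390 CPM before attachment and 537 and 978 CPM on day 5. Every step in this order exceeded the counting interval. The step from day 3 to day 4 morning was 2.56-fold (2.42 to 2.71), that from day 4 evening to day 5 away from the embryo 1.38-fold (1.34 to 1.42) and that from day 4 evening to day 5 around the embryo 2.51-fold (2.44 to 2.59). Around the embryo *Wnt11* was 1.82-fold higher than away from it (1.78 to 1.87).

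*Wnt7a*, an epithelial ligand known for patterning of the female tract and gland formation, was highest around the embryo. It had 2729, 1329 and 2110 counts in the 3 libraries before attachment (157, 74.0 and 133 CPM), 3382 away from the embryo (181 CPM) and 7705 surrounding it (447 CPM). Day 4 morning was its lowest library, 2.12-fold below day 3 (1.99 to 2.27). Away from the embryo it was 1.36-fold above day 4 evening (1.29 to 1.44), and around the embryo it was 3.35-fold above that library (3.20 to 3.52). The difference between the day 5 libraries was 2.47-fold (2.37 to 2.57). Between the same libraries 6 of the 8 epithelial markers were higher past 2-fold around the embryo (13.4% of all genes) and 0 were lower (15%). Their median log2 difference was 1.23, beside 1.30 for *Wnt7a* and 0.86 for *Wnt11*. The part of the epithelial share in these values was not tested.

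*Wnt4*, a ligand known for its part in the development of the female tract and in decidualization, was highest on day 3 and next highest around the embryo. Its counts went from 433 on day 3 morning to 61 and 25 on day 4 morning and evening, with 48 away from the embryo and 228 surrounding it (24.9, 3.40, 1.58, 2.57 and 13.2 CPM). Day 4 morning was 7.34-fold below day 3 (5.60 to 9.76), and day 4 evening was a further 2.15-fold lower (1.33 to 3.57). Around the embryo *Wnt4* was 8.38-fold above day 4 evening (5.53 to 13.2) and 5.14-fold above the library away from the embryo (3.75 to 7.18). Day 4 evening and day 5 away from the embryo, and the latter and day 4 morning, did not differ beyond their counting intervals. *Wnt4* is also a gene of decidualizing stroma, and the stromal transcription factor gene *Hand2* had 70, 79, 102, 389 and 2282 counts in the same order of libraries, while the 11 stromal markers together were lowest around the embryo. The part of stroma in the *Wnt4* values was not tested.

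*Wnt5a* was lower around the embryo than on day 4 evening, where the other 4 ligands were higher. It encodes a ligand known mainly for signalling that does not use beta-catenin. Its counts were 3238, 5061 and 3845 before attachment (186, 282 and 243 CPM), 6375 away from the embryo (342 CPM) and 1512 surrounding it (87.8 CPM). The library around the embryo was thus the lowest of the 5 and the library away from it the highest. Around the embryo *Wnt5a* was 2.77-fold below day 4 evening (2.61 to 2.94) and 3.89-fold below the library away from the embryo (3.68 to 4.12). Away from the embryo it was 1.41-fold above day 4 evening (1.35 to 1.46). The immune markers, summed, stood at 912 CPM on day 4 evening, 412 CPM away from the embryo and 102 CPM surrounding it, and the stromal genes *Dcn* and *Lum* had 1304 and 1220 counts on day 4 evening, 1709 and 997 away from the embryo and 242 and 115 surrounding it. The immune sum rested mainly on *Cd14* and *Lyz2*, and *Csf1r*, another of its markers, had 112, 170 and 37 counts in these 3 libraries. Of 4 immune markers with a mean of 1 CPM or more, 1 was lower past 2-fold away from the embryo than on day 4 evening. Around the embryo 4 were lower than on day 4 evening. Over all genes 12.7% and 20.7% were lower in these 2 comparisons. The 11 stromal markers went both ways, with 3 higher past 2-fold and 4 lower around the embryo than on day 4 evening (19.1% and 20.7% of all genes). The part of these cells in the *Wnt5a* values was not tested.

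**Figure D2:**
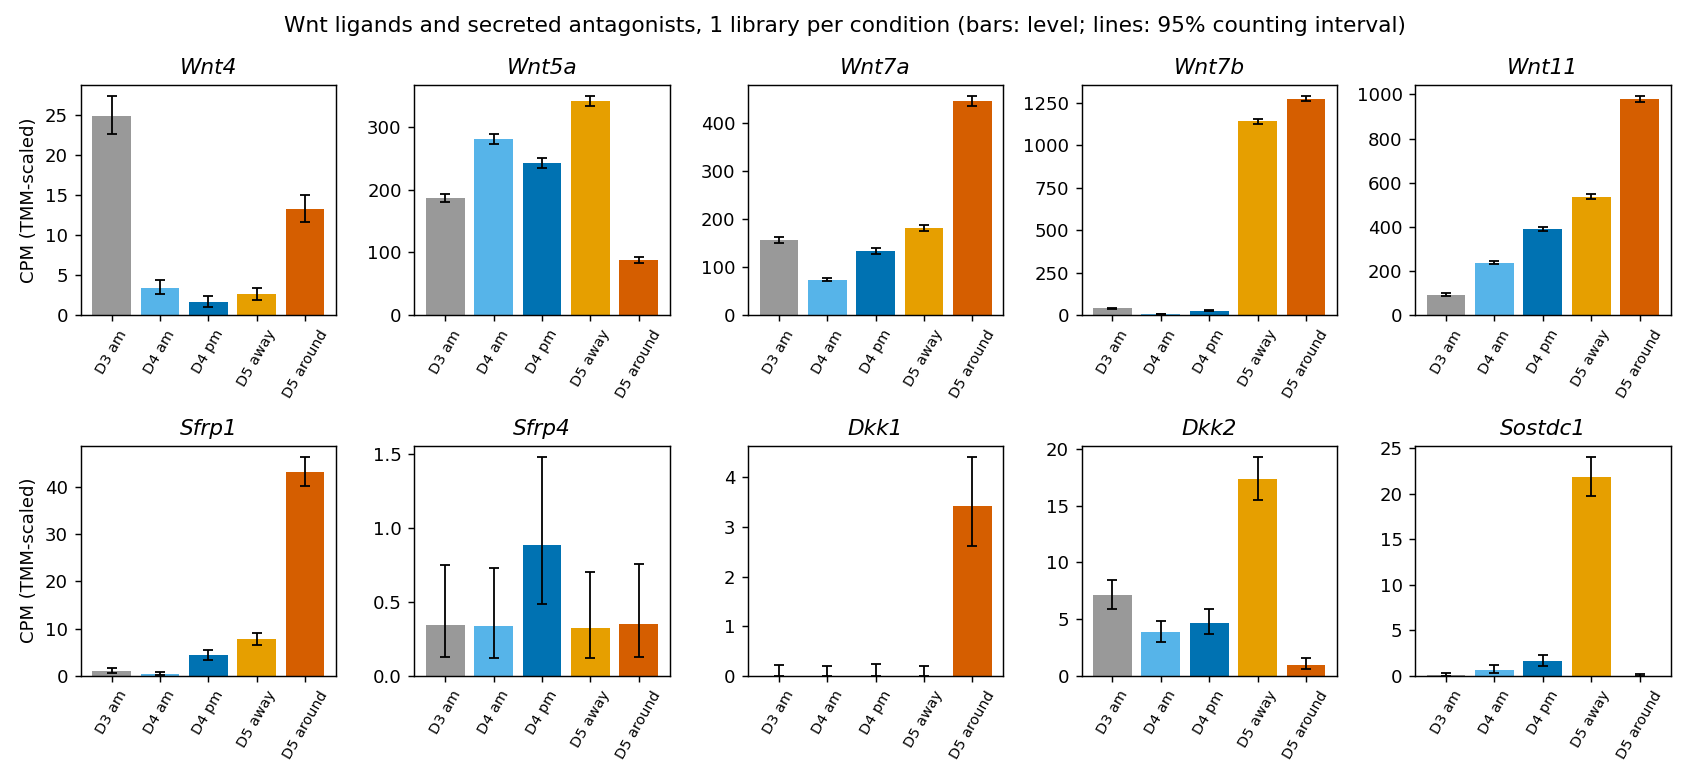
Level of each of the 10 genes (TMM-scaled CPM, linear axes that start at 0 and differ between panels) in the 5 libraries, with bars for the level of 1 library and lines for the 95% Poisson counting interval. *Wnt7b* stands at 1140 and 1273 CPM in the day 5 libraries against at most 38.5 CPM earlier, and *Dkk2* and *Sostdc1* are highest away from the embryo while *Sfrp1* and *Dkk1* are highest around it.

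Levels were compared between genes per length of transcript, as RPKM (CPM divided by the gene length in kilobases, taken from the count table). On this scale, the 19 Wnt ligand genes in the table summed to 144 RPKM on day 3 morning, 178 and 247 on day 4 morning and evening, 597 away from the embryo and 817 surrounding it. The 5 ligands described here held between 97.7% and 98.6% of the sum in each library. *Wnt7a* was the leading ligand on day 3 (49.5 RPKM, 34.4% of the sum), *Wnt11* on day 4 morning (85.3 RPKM, 48.0%) and day 4 evening (139.8 RPKM, 56.5%), and *Wnt7b* away from the embryo (258 RPKM, 43.2%). Around the embryo *Wnt11* led with 351 RPKM (43.0%), followed by *Wnt7b* with 288 RPKM (35.3%) and *Wnt7a* with 140.9 RPKM (17.2%). The share of *Wnt5a* was 29.6% on day 3, 36.2% on the morning of day 4, 13.1% away from the embryo and 2.46% surrounding it. *Wnt4* held 4.53% on day 3 and at most 0.4997% later. The make-up of the ligand RNA therefore differed between the libraries as well as its amount.

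**Figure D3:**
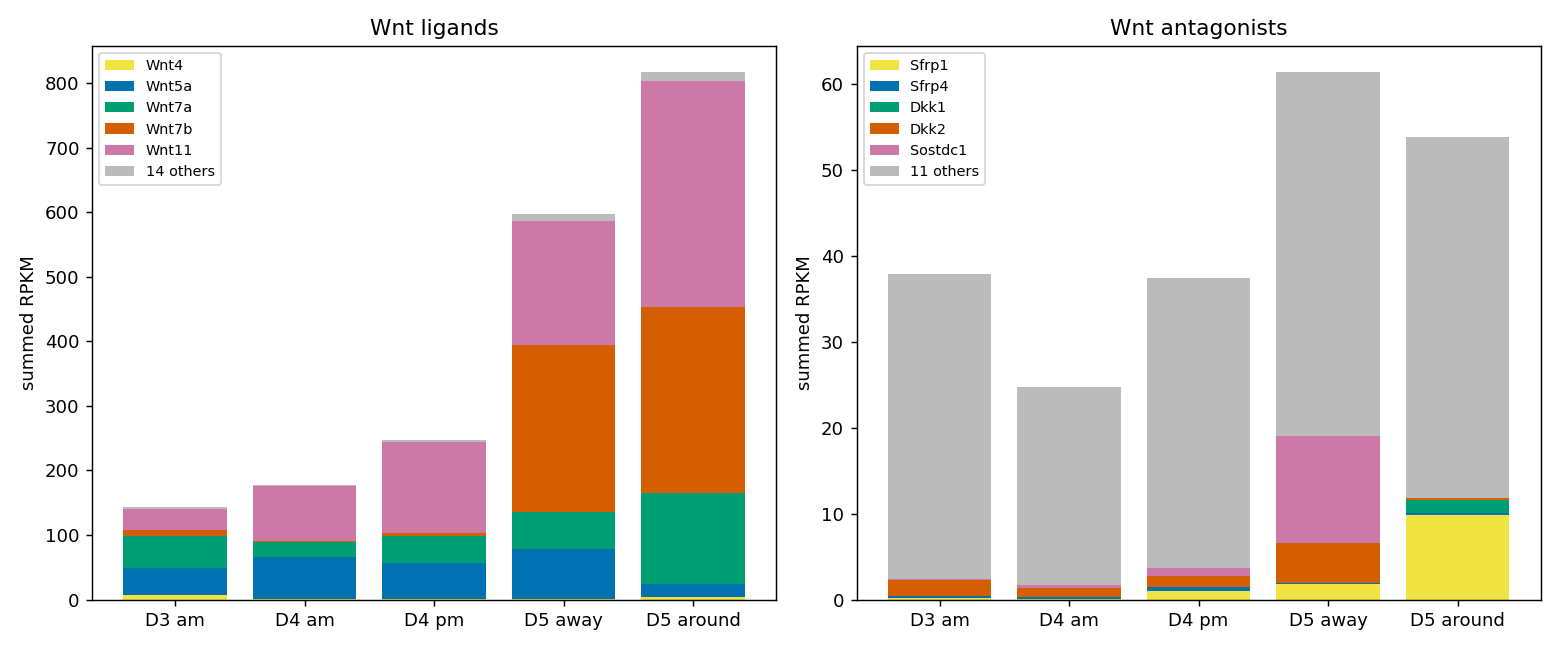
Summed RPKM of the 19 Wnt ligand genes and the 16 genes listed as antagonists in each library (the membrane-bound *Apcdd1* among them), stacked by gene, with the genes not described singly in grey. *Wnt7b* adds 258 and 288 RPKM to the ligand sum in the day 5 libraries, and *Sostdc1* appears in the antagonist sum chiefly away from the embryo.

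Among the antagonists, *Sfrp1* was highest around the embryo. The Sfrp1 protein binds Wnt proteins and keeps them from their receptors. It had 17 reads on day 3 and 8 and 69 on the morning and evening of day 4 (0.979, 0.445 and 4.36 CPM), 144 away from the embryo (7.72 CPM) and 743 surrounding it (43.1 CPM). Day 3 and day 4 morning, both with few counts, did not differ beyond the counting interval, and each of the next 3 libraries was higher than the one before it. *Sfrp1* was 9.79-fold higher on day 4 evening than on day 4 morning (4.70 to 23.6). Around the embryo it was 9.89-fold above day 4 evening (7.72 to 12.9) and 5.59-fold above the library away from the embryo (4.67 to 6.73).

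*Dkk1* was counted in the library around the embryo only, with 59 reads (3.43 CPM, 1.53 RPKM) against 0 in each of the other 4. Dkk1 protein takes Lrp5 and Lrp6 away from the Wnt receptor complex and is made by decidual stroma in the mouse. Against a floor of 3 counts per library it was at least 18.1-fold higher than on day 4 evening and at least 21.3-fold higher than away from the embryo. These bounds leave out the counting error of the ratio, whose 95% interval began at a log2 ratio of 3.83 against day 4 evening and 4.07 against the library away from the embryo. The floor equals 0.19 and 0.161 CPM in these libraries, and the 95% Poisson upper limit of a count of 0 was 0.233 and 0.198 CPM. The mean level of *Dkk1* was below the minimum of 1 CPM used for counts over all genes, so it is in none of those counts. The embryo markers named above shared its distribution over the 5 libraries (0 in 4 and detected around the embryo), and whether these reads came from epithelium, stroma or embryo was not tested.

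*Dkk2*, a relative of *Dkk1* that binds the same co-receptors, had the opposite distribution on day 5. It had 123, 69 and 74 counts before attachment (7.08, 3.84 and 4.68 CPM), 323 away from the embryo (17.3 CPM) and 17 surrounding it (0.987 CPM). Away from the embryo *Dkk2* was 3.70-fold above day 4 evening (2.87 to 4.83), and around the embryo it was 4.74-fold below it (2.77 to 8.57). Between the day 5 libraries it was 17.5-fold lower around the embryo (10.8 to 30.5). The 2 libraries of day 4 did not differ in *Dkk2* beyond the counting interval.

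*Sostdc1*, whose protein binds Lrp co-receptors and also Bmp ligands, was found chiefly away from the embryo. It had 1 read on day 3 and 12 and 25 on the morning and evening of day 4 (0.0576, 0.668 and 1.58 CPM), 407 away from the embryo (21.8 CPM) and 0 surrounding it. The library away from the embryo was thus the highest by far, and those of day 3 and around the embryo were at or under the floor. Away from the embryo *Sostdc1* was 13.8-fold above day 4 evening (9.22 to 21.6). Around the embryo, against a floor of 3 counts, it was at least 9.07-fold below day 4 evening and at least 125-fold below the library away from the embryo. These bounds also leave out the counting error of the ratio, and the 95% counting interval of the log2 ratios reached -2.78 and -6.66. From day 3 to day 4 morning the ratio was 11.6, with an interval of 1.72 to 496 since day 3 had 1 count. *Sostdc1* passed the minimum of 1 CPM on average through the library away from the embryo alone. Between the day 5 libraries, where *Dkk2* and *Sostdc1* were lower around the embryo, 4 of 4 immune markers were lower past 2-fold. Of 11 stromal markers 4 were lower and 1 was higher. Over all genes 15% were lower and 13.4% higher. The part of immune and stromal cells in the *Dkk2* and *Sostdc1* values was not tested.

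*Sfrp4*, another frizzled-related protein gene, stayed near the floor. It had 6 counts in 4 libraries and 14 on day 4 evening (0.322 to 0.885 CPM), and no neighbours in this order differed beyond the counting interval. No difference was detectable at this depth.

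The table held 16 genes listed as antagonists, secreted except for the membrane-bound *Apcdd1*. *Dkk3* and *Dkkl1* are listed by name, and whether they act against Wnt proteins was not examined. Together the list summed to 37.9 RPKM on day 3 morning, 24.7 and 37.4 on day 4 morning and evening, 61.4 away from the embryo and 53.9 surrounding it. The 5 antagonists described here held 6.24%, 6.92% and 9.81% of this before attachment, 31.1% away from the embryo and 22.0% surrounding it. *Sostdc1* (12.5 RPKM) and *Dkk2* (4.67 RPKM) made up most of their part away from the embryo, and *Sfrp1* (9.87 RPKM) most of it around the embryo. Of the antagonists outside the 10, *Sfrp2* held 49.7% to 63.5% of the sum before attachment, 24.3% away from the embryo and 5.12% surrounding it. In every library the ligand sum exceeded the antagonist sum. The figures for RNA do not give the amounts of protein.

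Each difference was next counted past 2-fold (a log2 difference of TMM-scaled CPM beyond 1, with 2 counts added to damp low values), among the 12915 genes whose mean level reached 1 CPM. This left 8 of the 10 genes, all but *Sfrp4* and *Dkk1*. A gene can pass this minimum through 1 high library, and the genes were chosen with earlier results of these data known. These counts and medians therefore describe the genes and are not a test. From day 3 to day 4 morning, 2 of the 8 were higher (*Wnt11* and *Sostdc1*), where 7.47% of all genes were, and 3 were lower (*Wnt4*, *Wnt7a* and *Wnt7b*), where 11.5% of all genes were. The median log2 difference of the 8 was -0.91, against 0.003 over all genes. With library totals in place of TMM the median of all genes shifted to -0.28, 538 genes were higher and 2209 lower in place of 965 and 1480, and 2 of the 8 were higher and 5 lower. From day 4 morning to day 4 evening, 3 were higher (*Wnt7b*, *Sfrp1* and *Sostdc1*; all genes 7.21%) and 1 was lower (*Wnt4*; all genes 6.95%), with a median of 0.78. *Wnt7b* thus was lower in the first step and higher in the second, and *Wnt4* was lower in both.

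After attachment, 3 of the 8 were higher away from the embryo than on day 4 evening (*Wnt7b*, *Dkk2* and *Sostdc1*), where 12.9% of all genes were, and 0 were lower, where 12.7% of all genes were. The median log2 difference was 0.74, against 0.007 over all genes. With library totals the median of all genes shifted to 0.23, 2250 genes were higher and 1264 lower in place of 1669 and 1639, and 4 of the 8 were higher. Around the embryo, all 8 lay past 2-fold from day 4 evening. In that comparison 5 were higher (*Wnt4*, *Wnt7a*, *Wnt7b*, *Wnt11* and *Sfrp1*), where 19.1% of all genes were, and 3 were lower (*Wnt5a*, *Dkk2* and *Sostdc1*), where 20.7% of all genes were. Their median was 1.54, against -0.02 over all genes. Both comparisons use the same day 4 evening library.

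Between the day 5 libraries, *Wnt4*, *Wnt7a* and *Sfrp1* were higher around the embryo (13.4% of all genes were) and *Wnt5a*, *Dkk2* and *Sostdc1* were lower (15% of all genes were), with a median of 0.51 against -0.05 over all genes. With library totals the median of all genes shifted to -0.36, 1288 genes were higher and 2807 lower in place of 1729 and 1932, and *Wnt7a* moved from a log2 difference of 1.30 to 0.99. *Wnt7b* and *Wnt11*, the 2 most abundant ligands on day 5, differed by less than 2-fold between these libraries.

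**Figure D4:**
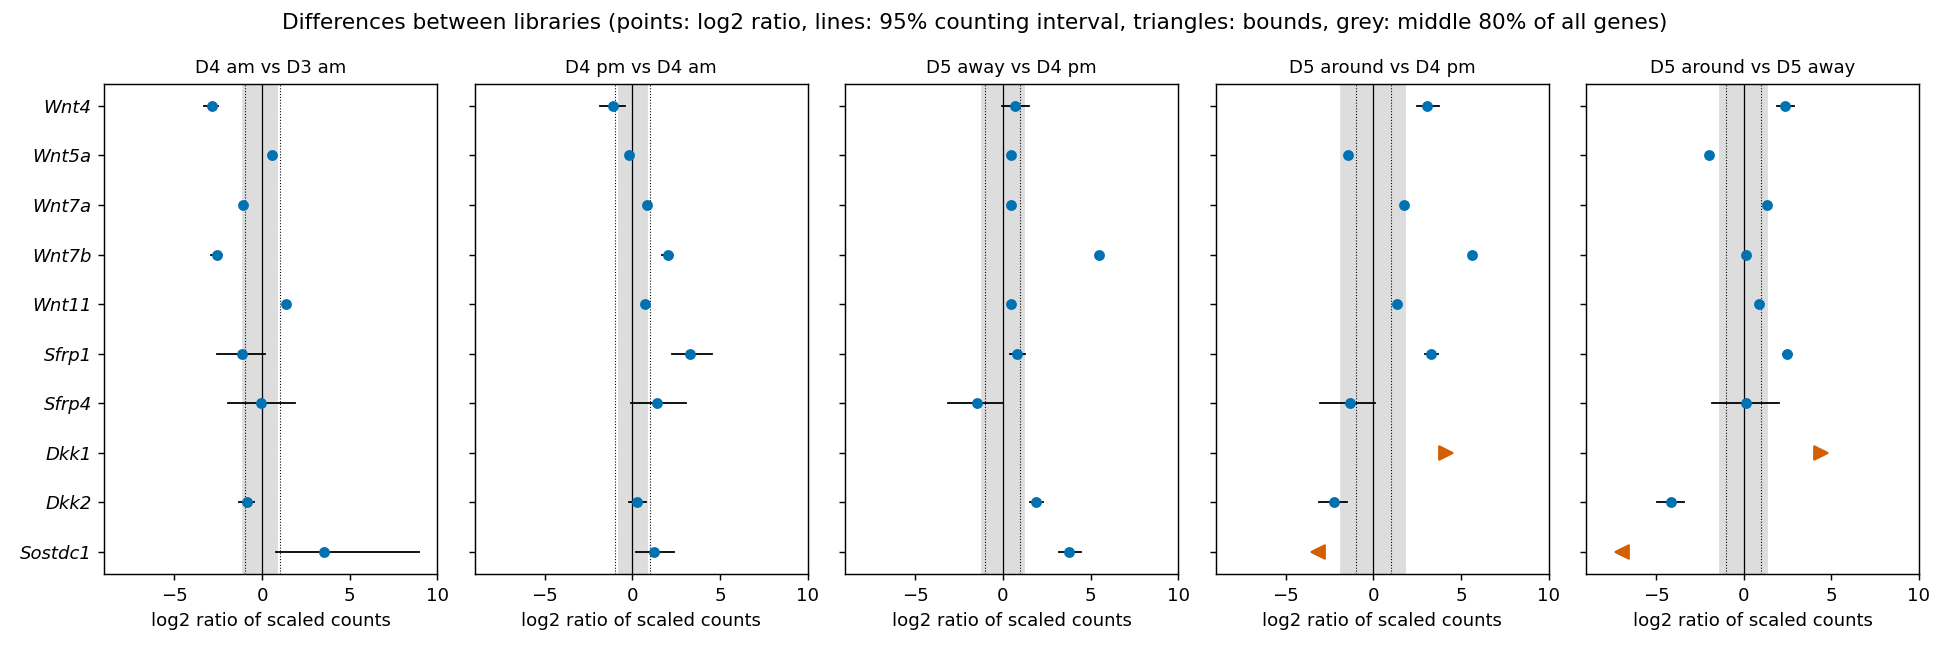
Log2 ratio of scaled counts of the 10 genes in the 5 comparisons (points), with lines for the 95% counting interval, triangles for bounds against a floor of 3 counts, dotted lines at 2-fold and a grey band for the middle 80% of all genes tested. The *Wnt7b* points of day 5 against day 4 evening lie at 5.46 and 5.62, and *Dkk2* and *Sostdc1* lie on opposite sides of 0 away from the embryo and surrounding it.

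For each gene that passed the minimum, the nearest gene by profile was found from the root mean square distance of centred log2 CPM over the 5 libraries. With 5 points that share their libraries this is a description. *Wnt5a* had the closest neighbours, *Csf1r* (distance 0.094), which is also in the immune marker list, and *Gzmb* (0.108), a gene of cytotoxic lymphocytes, and *Wnt7a* lay next to *Got1* (0.12) and *Cav2* (0.137). *Wnt4* lay nearest to *Ly6a* (0.228), *Sfrp1* to *Thbd* (0.178) and *Car12* (0.217), *Dkk2* to *Tox3* (0.184) and *Ppargc1a* (0.271), and *Wnt11* to *Sbno2* (0.233) and *Slc16a13* (0.237). *Wnt7b* was nearest to *Esm1* (0.387) and *Ces2b* (0.623). *Esm1*, which encodes a secreted proteoglycan, had 23, 1 and 18 counts before attachment, then 1234 away from the embryo and 853 surrounding it. *Sostdc1* had no close neighbour, with *Cxcl12* at 1.10 and *Lrrc17* at 1.29.

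The rest of the pathway was counted in the same way. Of 14 other ligand genes, 4 passed the minimum and 5 were at 0 in every library. *Wnt9a* had 38, 31, 24 and 28 counts in the first 4 libraries and 414 around the embryo, 16.01-fold above the library away from it (10.9 to 24.4). *Wnt16* had 32, 12 and 25 counts before attachment, 206 away from the embryo and 110 surrounding it, and *Wnt5b* was highest away from the embryo with 86 counts against 17 to 49 elsewhere. Each of these 3 held at most 1.11% of the ligand sum in any library.

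Of 11 other genes listed as antagonists, 7 passed the minimum. Around the embryo 4 of the 7 were higher than on day 4 evening and 2 were lower, and between the day 5 libraries 3 were higher around the embryo and 3 were lower. Over all genes 19.1% were higher and 20.7% lower in the former comparison, and 13.4% and 15% in the latter. *Notum*, whose enzyme strips the lipid from Wnt proteins, had 215, 99, 79 and 104 counts in the first 4 libraries and 699 around the embryo. *Sfrp5* had at most 9 counts elsewhere and 143 around the embryo, and *Dkkl1* at most 33 and 103. Lower around the embryo than away from it were *Sfrp2*, with 95 counts against 557, and *Apcdd1* with 112 counts against 665.

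Wnt proteins leave the cell through the carrier Wls after Porcn has added their lipid. *Wls* had 7416, 5484 and 4388 counts before attachment, 13204 away from the embryo and 15131 surrounding it, 2.55-fold and 3.17-fold above day 4 evening. *Porcn* had 667, 1326 and 387 counts before attachment, 933 away from the embryo and 144 surrounding it. The 2 genes were both higher than on day 4 evening away from the embryo (*Porcn* by 2.05-fold), whereas around the embryo *Porcn* was 2.93-fold lower.

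Of 17 receptor and co-receptor genes, 14 passed the minimum. Those past 2-fold were 1 higher and 3 lower from day 3 to day 4 morning, 2 and 1 from day 4 morning to evening, 2 and 3 from there to day 5 away from the embryo, 5 and 2 to day 5 around it and 5 and 1 between the day 5 libraries. Over all genes the shares higher and lower were 7.47% and 11.5%, 7.21% and 6.95%, 12.9% and 12.7%, 19.1% and 20.7%, and 13.4% and 15% in this order. *Fzd6*, a Frizzled receptor, was highest on day 4 morning with 7219 counts and had 1808 and 2026 counts on day 5. The partners of Dkk proteins also differed. *Kremen1*, a receptor that takes up Lrp6 together with Dkk1, had 530, 749 and 511 counts before attachment and 2741 and 2958 counts away from and around the embryo. *Kremen2*, with the same role, had 5 to 10 counts in 4 libraries and 354 around the embryo, 76.7-fold above the library away from it (32.6 to 238). *Fzd10* had 361 counts on day 3 and 12 around the embryo, and the co-receptor *Ryk* stayed between 1792 and 2548 counts.

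R-spondins strengthen Wnt signals by way of Lgr receptors, which hold back the ligase Znrf3. Of this list of 9 genes, 6 passed the minimum. *Lgr5* had 430 counts on day 3, 108 on day 4 morning and 1617 on day 4 evening, 17.0-fold above the morning (14.0 to 20.9), then 1504 away from the embryo and 582 surrounding it. *Rspo1* had 1 to 16 counts in 4 libraries and 211 around the embryo, and *Rspo3* had 118 counts on day 4 evening and 3 and 12 on day 5. *Znrf3* had 786 counts away from the embryo and 290 surrounding it, and *Lgr4* was below day 4 evening (1964 counts) in both day 5 libraries (979 and 808 counts).

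Most genes of the intracellular core lay within 2-fold in each comparison. Of 18 genes 16 passed the minimum, and 0 lay past 2-fold in 3 of the 5 comparisons. From day 4 morning to evening 1 was lower (*Bcl9l*, 2.42-fold), where 6.95% of all genes were. Around the embryo 2 were higher than away from it, near the share of all genes (13.4%). In the other comparisons the shares of all genes higher and lower were 7.47% and 11.5% (day 3 to day 4 morning), 12.9% and 12.7% (day 4 evening to day 5 away from the embryo) and 19.1% and 20.7% (to day 5 around it). *Ctnnb1*, which encodes beta-catenin, had 12202 to 14295 counts and differed by at most 1.29-fold in any comparison made. *Csnk1a1*, *Csnk1d* and *Dvl2* were also under 2-fold in each comparison, although *Dvl2* had a log2 range of 1.36 over the 5 libraries.

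Of 12 feedback and target genes 11 passed the minimum, and they did not move in 1 direction. From day 3 to day 4 morning 1 was higher and 5 were lower (7.47% and 11.5% of all genes), and from day 4 morning to evening 2 were higher and 1 lower (7.21% and 6.95%). Away from the embryo 5 were higher and 2 lower than on day 4 evening (12.9% and 12.7%), and around the embryo 2 were higher and 3 lower (19.1% and 20.7%). Between the day 5 libraries 0 were higher around the embryo and 4 lower (13.4% and 15%). *Ascl2*, a transcription factor gene, had 22, 8 and 38 counts before attachment and 323 and 238 on day 5, and *Myc* had 2209 counts away from the embryo and 1095 surrounding it. *Tnfrsf19*, a TNF receptor family gene, had 1831 counts on day 3 and 50 around the embryo, and *Bambi*, which encodes a pseudoreceptor of the TGF-beta family, went from 17287 counts on day 4 morning to 3621 and 3024 on day 5. Outside the rule that named these genes, and after its values were seen, *Axin2* is given as a feedback gene in wide use as a readout of beta-catenin. It had 194 counts on day 3 and 49 to 70 in the other 4 libraries. *Ascl2* of the same list was higher in both day 5 libraries than in those before attachment, and *Axin2* was not. *Axin2* is 1 gene picked in this way and does not stand for the 11 measured genes, whose numbers past 2-fold are given above. The part of beta-catenin in these values was not tested.

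**Figure D5:**
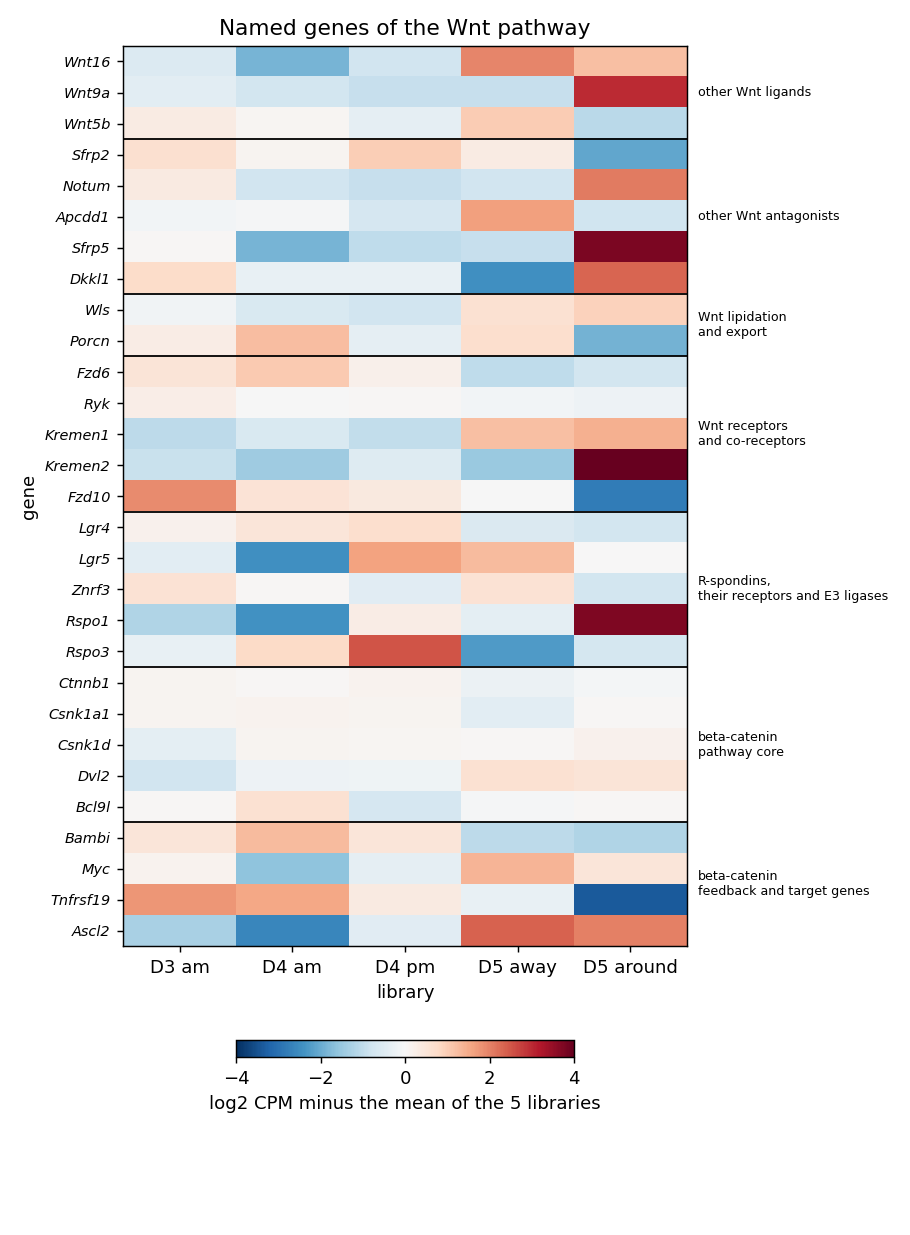
Named genes of the pathway lists (log2 CPM minus the mean of the 5 libraries, colour scale from -4 to 4), with genes in rows and the 5 libraries in columns. *Wnt9a*, *Notum*, *Sfrp5*, *Kremen2* and *Rspo1* are highest around the embryo. *Ctnnb1* keeps within a log2 range of 0.367, and *Dvl2* and *Bcl9l* of the core have ranges of 1.36 and 1.26.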

How the data were processed

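Uterine luminal layer was profiled in 5 wildtype libraries, grouped by the labels, with 1 library for each of 5 conditions. The authors deposited raw counts per gene, made with HISAT2 on GRCm38/mm10 and featureCounts of Subread 2.0.0, in 1 table of 23420 genes. The annotation and the handling of reads with several alignments are not given in the sources used here. The extraction and amplification of small amounts of RNA may limit the detection of rare transcripts, and 0 columns were left unmapped.

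Counts were scaled by TMM (edgeR 4.0.16, R 4.3.3) and expressed as CPM, RPKM and log2 CPM with a prior count of 2. Intervals were exact at 95% (scipy 1.17.1), with Python 3.11.15, pandas 2.3.3, numpy 2.4.6 and matplotlib 3.10.9. Without replicates the values reported carry no test (a test at an assumed dispersion was an alternative), and a gene was counted past 2-fold at a mean of at least 1 CPM. The procedure was tested on data simulated with counting error only, which leave out the spread between mice and from amplification. Alternatives were library totals, DESeq2 1.42.0 size factors, a smaller prior count (0.5), other minimums, 4-fold, and the edgeR exact test at dispersions of 0.1 and 0.4 and a false discovery rate of 0.05. Removal of the library around the embryo was added after seeing the data.

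The members and the gene lists were chosen with earlier results of these data known. Named were all 10 members, in each pathway list the 3 genes of highest mean RPKM and the 2 of largest range, and the 2 nearest profiles of each member, of which 1 is not reported here. Of the marker lists, Cxcl15, Adgre1, Hbb-bs and Hbb-bt had no value here.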

Additional observations from a re-analysis of the deposited data

Results flagged for a closer look

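*Wnt5a*, *Dkk2* and *Sostdc1* moved in opposite directions from day 4 evening to the 2 day 5 libraries, which was the reason to look at them again. The values here are log2 ratios of scaled counts, without the 2 counts added above. The log2 ratio of *Wnt5a* was 0.49 away from the embryo and -1.47 surrounding it. That of *Dkk2* was 1.89 away from the embryo and -2.24 surrounding it. That of *Sostdc1* was 3.79 away from the embryo and -3.18 surrounding it, with its count of 0 set to 3. With 1 library per condition the difference between the 2 positions was not tested, and position and library cannot be told apart. The 2 day 5 labels also name different poles (M and AM), so nearness to the embryo and pole cannot be told apart. No pole is named in the label of day 4 evening, so a standing difference between poles cannot be told apart from a change over time.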

How the results depend on the processing

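No paired analysis was possible because each condition had 1 library, and for the same reason no condition could be left with a replicate after removal of a library. The number of the 8 genes past 2-fold was 5 from day 3 to day 4 morning, 4 from day 4 morning to evening, 3 from there to day 5 away from the embryo, 8 to day 5 around it and 6 between the day 5 libraries. At 4-fold these numbers were 3, 1, 2, 5 and 4 in the same order (over all genes 685, 488, 1154, 2272 and 1398). With the edgeR exact test and the dispersion set to 0.1 they were 2 from day 3 to day 4 morning and 1 from day 4 morning to evening, and at a dispersion of 0.4 they were 0, 0, 0, 1 and 1 in the order above. At a dispersion of 0.1 the number was also below that past 2-fold in each comparison with a day 5 library. Such a test compares libraries and not conditions. Without the library around the embryo, an alternative chosen after seeing the data, the 3 remaining numbers were 5, 4 and 3. Over all genes the numbers ranged from 1829 to 5145 across the 5 comparisons, from 3585 to 7800 with no minimum, from 1015 to 3663 at a mean of at least 5 CPM, from 488 to 2272 at 4-fold, from 241 to 2540 at a dispersion of 0.1 and from 0 to 335 at 0.4. Of 47 log2 differences of single members, 44 moved by less than their counting interval with DESeq2 size factors, 33 with library totals and 32 with totals without *Rn45s* and *Lars2*, which took 14.98% to 23.2% of a library. With library totals the log2 difference of *Wnt4* from day 4 morning to evening was -0.99 in place of -1.05, that of *Sfrp1* from day 4 evening to day 5 away from the embryo was 1.03 in place of 0.81, and that of *Dkk2* from day 3 to day 4 morning was -1.16 in place of -0.86. *Wnt7b* and *Sfrp4* changed direction between the day 5 libraries, with -0.15 and -0.15 under library totals. Depth limits *Sfrp4*, *Dkk1*, *Sostdc1* and *Sfrp1* on days 3 and 4, which had at most 69 counts per library.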
